A study of Bos taurus with 3 samples.

Results

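The 5S ribosomal RNA (5S rRNA) sequences in bovine milk-derived extracellular vesicles (BM-EVs) were described locus by locus. Members were the deposited Rfam sequences whose name carries the family name 5S ribosomal RNA in the study's table of small RNA families. Of 1631 Rfam sequences listed in at least 1 library, 133 were members, and a further 5 sequences of that family were listed in no library. Small RNA of BM-EVs was sequenced in 3 libraries of 1 condition, from 100 ng of total RNA each. The vesicles came from purchased, pasteurized and skimmed cow milk of normal disease state, without treatment, and were separated by acidification and salting-out with ammonium sulfate. The kit tags every molecule with a unique molecular index (UMI), and counting UMIs counts PCR copies of a molecule once. Every listed sequence had at least 11 UMIs in its library, and an unlisted one had at most 10 and is not known to be absent. The study took milks with differing expiry dates as its biological replicates, but a link from these milks to the libraries is not stated in the sources used here, so biological and technical spread between libraries cannot be told apart.

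The 5S rRNA is the smallest RNA of the large ribosomal subunit. RNA polymerase III transcribes it from a promoter inside the gene that the factor TFIIIA binds, apart from the nucleolar repeat that gives the 18S, 5.8S and 28S rRNAs. Before it joins the ribosome, it is held in a small particle with the ribosomal proteins uL18 and uL5. Mammalian genomes hold tandem arrays of 5S genes and many scattered copies, a large part of them pseudogenes, and their near-identical sequences make it uncertain from which copy a short read came. The authors' treatment of sequences with several matches is not stated in the sources used here, so every value below is the count assigned to a locus, and transcription of that locus was not tested.

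The 3 libraries held 965891, 2310689 and 1090617 UMIs of miRNA and Rfam sequences in library 3, library 2 and library 1. These totals are the denominator of the shares below. Over the 68 loci listed in every library, the chi-square divided by its degrees of freedom was 26.5 between libraries 3 and 1, 59.0 between libraries 3 and 2, and 3.45 between libraries 2 and 1. All are above counting noise, so each library was kept as a separate sample. All intervals cover counting error only.

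The 133 loci lay on 28 chromosomes, apart from 2 on unplaced contigs. Chromosome 14 carried 22 loci, chromosome 6 carried 14 and chromosome 7 carried 10, and chromosomes 11 and 13 had none. Positions are those in the deposited sequence names, without a genome build in the sources used here, and no annotated gene was assigned to them. The reference sequences spanned 90 to 131 bases with a median of 119. The lengths of 119 bases (39 loci) and 120 bases (35 loci) were the most frequent, and 117 loci had 110 to 130 bases. Both strands were represented, with 71 loci on the plus strand and 62 on the minus strand.

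The 5S rRNA took up a larger share of the small RNA in library 3 than in the other libraries. It had 8419 UMIs in library 3, with 7077 in library 2 and 3268 in library 1. These are shares of 0.872% (Wilson 95% interval 0.853 to 0.890), 0.306% (0.299 to 0.313) and 0.30% (0.290 to 0.310), with a mean of 0.493% ± 0.328 (SD, n = 3). The share in library 3 was 2.91 times that in library 1 (95% exact interval 2.79 to 3.03) and 2.85 times that in library 2 (2.76 to 2.94), while libraries 2 and 1 differed by a ratio of 1.02 (0.980 to 1.07).

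The number of listed loci did not follow depth throughout. Library 3 listed 98 loci, library 2 listed 110 and library 1 listed 85, so library 3 listed more than library 1 although it held the fewest UMIs of all. This was not particular to the 5S rRNA. Over all Rfam sequences, 274 were listed in library 3 and not in library 1, and 145 the other way, beside 27 and 14 of the 5S loci. There were 68 loci listed in every library, 24 in a pair of libraries and 41 in a single one. Of those 41, 14 were listed only in library 3, 21 only in library 2 and 6 only in library 1, with at most 55, 35 and 19 UMIs, against the listing minimum of 11. At 10 UMIs for each unlisted locus, the members could hold at most 350 further UMIs in library 3, with 230 in library 2 and 480 in library 1, which is 4.16%, 3.25% and 14.7% of their 5S UMIs.

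A few loci carried much of the sum and many loci a little. The loci that together held 50% of the 5S UMIs numbered 7 in library 3, 7 in library 2 and 8 in library 1, and 90% needed 58, 66 and 59 loci. The 10 highest loci of each library held 55.8%, 61.2% and 57.6% of its 5S UMIs. The median listed locus had only 46, 24 and 19 UMIs, and 24, 41 and 54 of the listed loci had 20 UMIs or fewer.

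**Figure D1:**
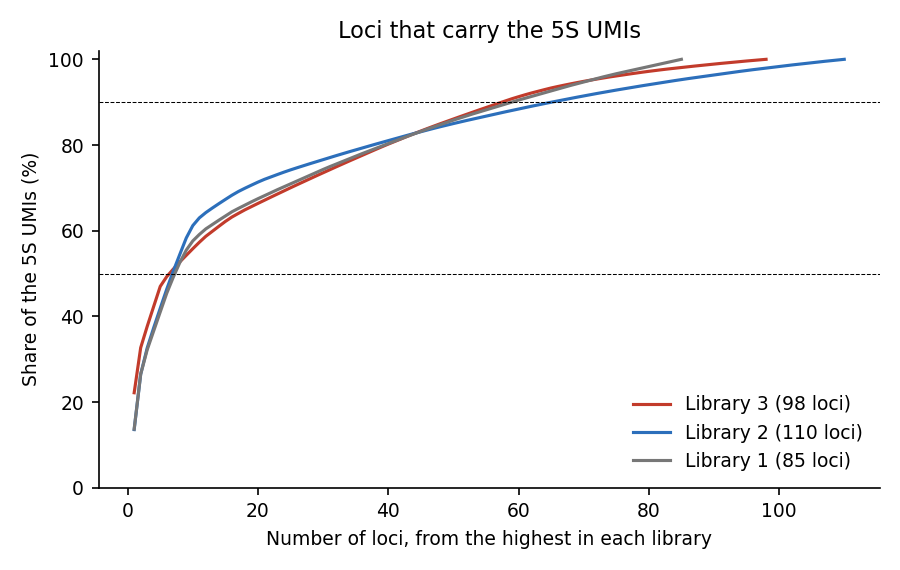
Cumulative share of the 5S UMIs (percent, vertical axis) against the number of loci in order of their count (horizontal axis), with a line for each library and dashed lines at 50% and 90%. The lines reach 50% at 7, 7 and 8 loci in libraries 3, 2 and 1 and then flatten, with 90% at 58, 66 and 59 loci.

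The libraries reached these sums through different loci. In libraries 2 and 1 the same pair of loci led. The locus chr28:1894648-1894766 (minus strand, 119 bases) had 393 UMIs in library 3, with 915 in library 2 and 448 in library 1, and its share of the 5S UMIs was 4.67%, 12.9% and 13.7% (mean 10.4% ± 5.01, SD, n = 3). The locus chr21:60891281-60891399 (minus strand, 119 bases) had 392, 962 and 418 UMIs. The intervals of this pair overlapped in every library, so their order was not resolved.

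As a share of all UMIs, both loci were level across the libraries. The ratio for chr28:1894648-1894766 was 0.991 (0.863 to 1.14) for library 3 over library 1, 1.03 for library 3 over library 2 and 0.964 for library 2 over library 1. The ratios for chr21:60891281-60891399 were 1.06 (0.920 to 1.22), 0.975 and 1.09. Their lower share of the 5S UMIs in library 3 therefore went with a larger 5S sum there and not with fewer of their own UMIs per total.

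Library 3 was led by other loci. The locus chr8:119825-119943 (plus strand, 119 bases) had 1868 UMIs in library 3, against 25 in library 2 and 13 in library 1, which is 22.2%, 0.353% and 0.398% of the 5S UMIs. Its share of all UMIs in library 3 was 162 times that in library 1 (94.6 to 305) and 179 times that in library 2. Libraries 2 and 1 did not differ beyond counting error at this locus, with a ratio of 0.908 (0.447 to 1.93).

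A further pair of loci showed the same pattern. The locus at 7703-7821 of an unplaced contig (minus strand, 119 bases) had 885 UMIs in library 3 and 12 in library 2 and was not listed in library 1. Its ratio was 176 for library 3 over library 2 and at least 99.9 for library 3 over library 1, taken against 10 UMIs, the highest count an unlisted locus can have. The locus chr5:115017094-115017212 (plus strand, 119 bases) had 419 UMIs in library 3, against 17 in library 2 and 22 in library 1, with ratios of 59.0 for library 3 over library 2 and 21.5 (14 to 34.7) for library 3 over library 1.

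These 3 loci stood apart from the other 5S loci. A border of 20-fold was drawn between them and the rest after the values had been seen. With TMM or DESeq2 scaling in place of the library totals, chr5:115017094-115017212 was just below that border, at 19.1 and 19.0. The next ratios for library 3 over library 1 were at least 7.11 at chr14:1116844-1116962, at least 6.66 at chr21:1883667-1883785 and at least 6.21 at chr1:62839413-62839538. Together the 3 loci held 3172 UMIs in library 3, with 54 in library 2 and 35 in library 1, or 37.7%, 0.763% and 1.07% of the 5S UMIs. Over all Rfam sequences, 6 were over 20-fold higher in library 3 than in library 1, and these 3 loci were among them.

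Without the 3 loci, the gap between libraries narrowed and did not close. The 5S share of all UMIs was then 0.543% in library 3, 0.304% in library 2 and 0.296% in library 1 (mean 0.381% ± 0.140). The ratio for library 3 was 1.83 (1.75 to 1.92) over library 1 and 1.79 (1.72 to 1.85) over library 2. The number of loci that held 50% of the UMIs was then 21, 7 and 8, and 90% needed 64, 63 and 58 loci. The 3 loci were the highest of library 3 and not of the other libraries. The rise to 21 in library 3 alone therefore follows from taking them out.

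The other loci with high counts were closer to level. Among the 10 loci with the highest mean share of the 5S UMIs, which were also the 10 highest by UMIs per base of sequence, 9 lay on the minus strand. Of all 133 loci, 62 did. The locus chr22:58712296-58712414 had 192 UMIs in library 3, with 433 in library 2 and 187 in library 1, a mean share of 4.71% ± 2.11, and a ratio of 1.16 for library 3 over library 1. The 5 further loci of these 10 had mean shares from 2.90% to 3.53%. They were chr6:62581480-62581594 with 141, 320 and 144 UMIs, chr26:5312988-5313106 with 148, 316 and 143, chr4:90837266-90837373 with 126, 297 and 144, chr7:40166128-40166247 with 130, 335 and 122, and chrX:81639528-81639642 with 118, 276 and 111 in libraries 3, 2 and 1.

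**Figure D2:**
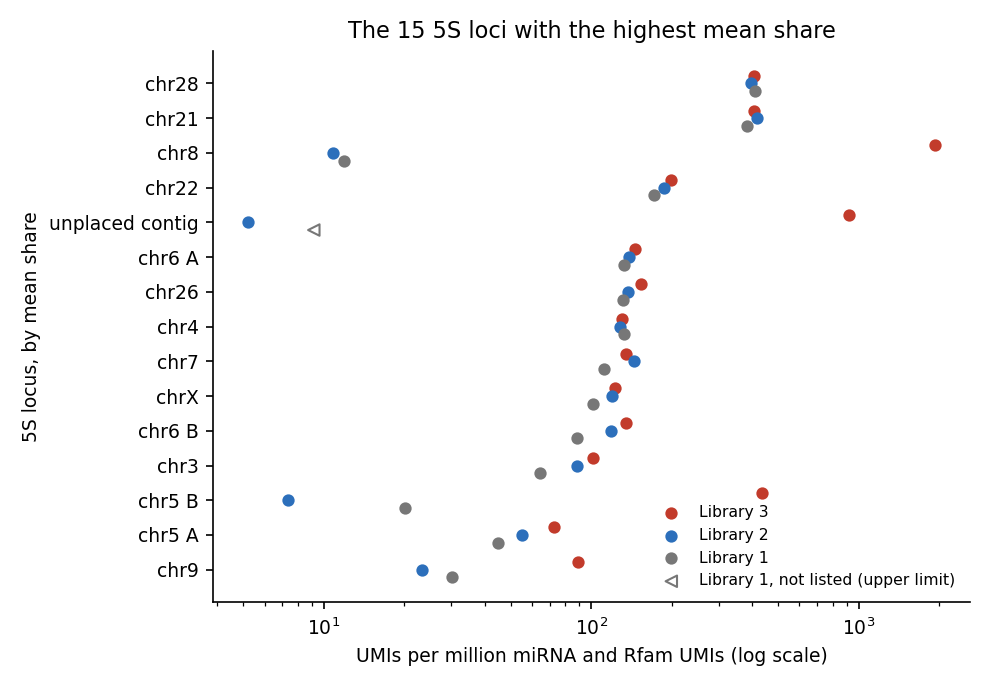
UMIs scaled to equal totals of miRNA and Rfam UMIs per library (log scale, horizontal axis) of the 15 5S loci with the highest mean share, ordered by that share from the top, with a point for each library and an open triangle at the upper limit where a locus was not listed. On chromosome 6, A is the locus at 62581480 and B the one at 84048359, and on chromosome 5, A is the locus at 19683029 and B the one at 115017094. The points of most loci lie together, while chr8, the unplaced contig and chr5 B have library 3 far to the right.

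A group of 13 loci, those with a mean of at least 50 UMIs besides the 3 loci above, a border also chosen after the values had been seen, made up most of libraries 2 and 1. They held 2060 UMIs in library 3, with 4600 in library 2 and 1997 in library 1, which is 24.5%, 65.0% and 61.1% of the 5S UMIs. Relative to all UMIs they were closer to level, at 0.213%, 0.199% and 0.183%, with a ratio of 1.16 (1.09 to 1.24) for library 3 over library 1 and 1.07 (1.02 to 1.13) for library 3 over library 2. Both borders use these same counts, and the deeper library 2 gives most to the mean of unscaled UMIs. The near-level ratios can therefore come in part from the selection. The interval of the ratio for library 3 over library 1 held 1 at 9 of the 13 loci and lay above 1 at 4.

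The exception past 2-fold was chr9:106654-106770, which had 86 UMIs in library 3, against 54 in library 2 and 33 in library 1. Its ratio was 2.94 (1.95 to 4.54) for library 3 over library 1 and 3.81 (2.68 to 5.46) for library 3 over library 2. Smaller gaps were seen at chr6:84048359-84048484, with 130, 273 and 96 UMIs and a ratio of 1.53 (1.17 to 2.01) for library 3 over library 1, and at chr3:100692392-100692517, with 98, 204 and 70 UMIs and a ratio of 1.58 (1.15 to 2.18). The last locus with an interval above 1 was chr5:19683029-19683146, with 70, 127 and 49 UMIs and a ratio of 1.61 (1.10 to 2.37).

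Neighbouring loci on chromosomes 14 and 6 were higher in library 3 throughout. Loci within 100 kb of the next one were joined into clusters from their positions alone, and 3 clusters had at least 3 loci. The chromosome 14 cluster had 17 loci between positions 208693 and 583105, with 7 on the plus strand and 10 on the minus strand. It held 959 UMIs in library 3, with 381 in library 2 and 301 in library 1, or 11.4%, 5.38% and 9.21% of the 5S UMIs. Its summed share of all UMIs was 3.60 times higher in library 3 than in library 1 (3.16 to 4.11) and 6.02 times higher than in library 2 (5.34 to 6.80).

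The difference was seen at every locus of the cluster. Single listed loci had 44 to 96 UMIs (median 56) in library 3, 13 to 37 (median 21) in library 2 and 13 to 25 (median 18.5) in library 1. These counts are not scaled to the library totals. Reads of near-identical copies may be shared among the loci, so the loci are not independent repeats of the difference. Its leading locus, chr14:478508-478627, had 96, 14 and 22 UMIs, with ratios of 4.93 for library 3 over library 1 and 16.4 for library 3 over library 2. All 16 loci listed in both libraries were past 2-fold for library 3 over library 1, and all 17 for library 3 over library 2, where 15.1% and 28.1% of all Rfam sequences listed in both libraries of the pair were past 2-fold in that direction. The 3 loci of chromosome 14 just outside the cluster held 212, 56 and 33 UMIs, and among them chr14:954555-954673 had 98, 19 and 19 UMIs and ratios of 5.82 (3.54 to 10.1) over library 1 and 12.3 over library 2.

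The chromosome 6 cluster had 8 loci between positions 8896463 and 8908887, all on the plus strand and 120 to 122 bases long. It held 419 UMIs in library 3, with 141 in library 2 and 154 in library 1, with 43 to 61, 13 to 30 and 16 to 23 UMIs per listed locus. The leading locus, chr6:8908768-8908887, had 56, 21 and 22 UMIs. The summed share was 3.07 times higher in library 3 than in library 1 (2.55 to 3.72) and 7.11 times higher than in library 2 (5.86 to 8.67). All 8 loci listed in both libraries were past 2-fold for library 3 over library 1, and all 7 for library 3 over library 2. Of all Rfam sequences, 15.1% and 28.1% were, and over library 2 50.5% of those neither 5S nor tRNA. As on chromosome 14, the loci are not independent repeats of the difference.

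In both clusters library 2 was below library 1. The ratio for library 2 over library 1 was 0.597 (0.512 to 0.697) on chromosome 14 and 0.432 (0.341 to 0.547) on chromosome 6, whereas it was 1.09 (1.03 to 1.15) for the 13 loci with high counts. The third cluster, of 3 loci on chromosome 21, held 392, 1007 and 418 UMIs and consisted almost wholly of its leading locus chr21:60891281-60891399. Its summed counts were thus like those of that locus and unlike those of the other clusters.

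**Figure D3:**
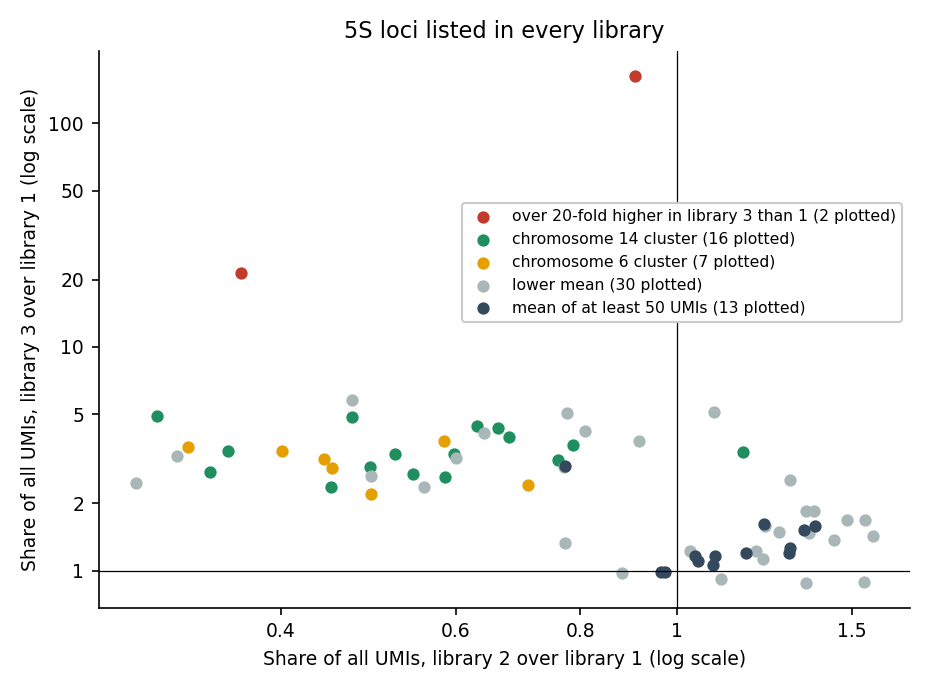
Ratio of the share of all UMIs for library 3 over library 1 (vertical axis, log scale) against the ratio for library 2 over library 1 (horizontal axis, log scale), with a point for each 5S locus listed in every library, coloured by group; both ratios share library 1. The 13 loci with a mean of at least 50 UMIs gather near 1 except chr9, the clusters on chromosomes 14 and 6 lie above 2 and mostly left of 1, and chr8 stands at 162.

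The groups can be added up to the difference in 5S share. Between library 3 and library 1 the share differed by 0.572 percentage points. The 3 loci past 20-fold held 56.9% of that difference, the chromosome 14 cluster 12.5%, the chromosome 6 cluster 5.12%, the 13 loci with high counts 5.27% and the 92 remaining loci 20.2%. Between library 3 and library 2 the difference was 0.565 percentage points, with 57.7%, 14.6%, 6.59%, 2.51% and 18.6% from the same groups. The difference between library 2 and library 1 was 0.00663 percentage points, the sum of positive and negative parts, as the chromosome 14 cluster fell by 0.0111 and the chromosome 6 cluster fell by 0.00802 percentage points in library 2 and the high loci and the remaining loci were 0.0160 and 0.0107 higher there.

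**Figure D4:**
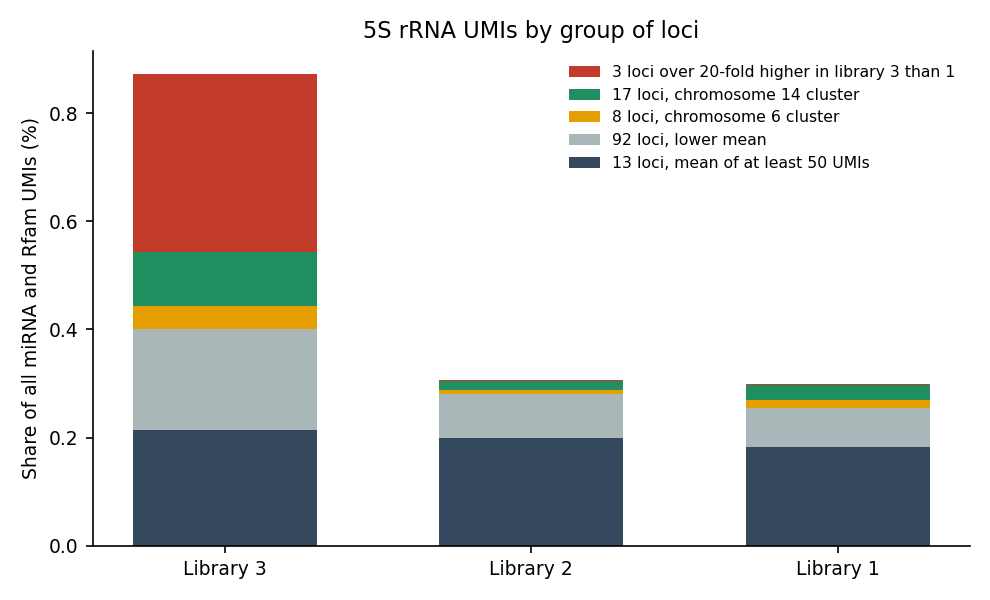
Share of all miRNA and Rfam UMIs (percent) taken by the 5S loci in libraries 3, 2 and 1, stacked by group of loci. The 13 loci with a mean of at least 50 UMIs have bars of 0.213%, 0.199% and 0.183%, while the 3 loci past 20-fold make up 0.328% in library 3 and are too thin to see at 0.00234% in library 2 and 0.00321% in library 1.

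The 92 remaining loci held 1809 UMIs in library 3, with 1901 in library 2 and 781 in library 1, with a ratio of 2.62 for library 3 over library 1 and 2.28 over library 2. They were mixed. Of those listed in both libraries, 14 of 32 were past 2-fold for library 3 over library 1, against 15.1% of all Rfam sequences, and 18 of 41 for library 3 over library 2, against 28.1%. High examples were chr29:198199-198318 with 59, 30 and 13 UMIs and a ratio of 5.12 over library 1, and chr23:52488070-52488188 with 63, 23 and 14 UMIs and a ratio of 5.08.

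Other loci of this group had ratios below 1 for library 3. Among loci listed in both, the lowest ratio for library 3 over library 2 was that of chr18:40195467-40195556, at 90 bases the shortest member, which had 15, 62 and 19 UMIs and ratios of 0.579 (0.306 to 1.03) over library 2 and 0.891 over library 1. The locus chr5:17740811-17740929 had 11, 40 and 14 UMIs and a ratio of 0.658 over library 2. The ratio over library 2 was 0.829 at chr7:27257903-27258023 with 26, 75 and 32 UMIs, 0.909 at chr16:65966761-65966879 with 19, 50 and 15, and 0.926 at chr7:388809-388927 with 12, 31 and 12. The intervals of these 5 ratios over library 2 all held 1, and no 5S locus listed in both libraries of a pair was past 2-fold lower in library 3. With at least 11 UMIs in library 3, most loci had too few UMIs in the other library to be so. Of the loci not listed in library 3, chr7:51745434-51745547 had 13 UMIs in library 2 and 43 in library 1, which puts its ratio for library 3 over library 1 at no more than 0.263. Likewise chr8:64096204-64096322 had 12 and 26 UMIs and a ratio of at most 0.434. At these 2 loci the bound for library 3 over library 1 was past 2-fold lower, but it carries no interval for counting error.

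Counted over all loci, a larger part of the 5S loci than of all Rfam sequences was past 2-fold higher in library 3. For library 3 over library 1, 41 of the 71 5S loci listed in both were past 2-fold higher and 0 lower, whereas 15.1% of all 1020 Rfam sequences listed in both were past 2-fold higher and 4.51% lower. For library 3 over library 2, 46 of 81 loci (56.8%) were past 2-fold higher and 0 lower, against 28.1% and 1.21% of 1075 Rfam sequences. That background differed by class, at 13.8% of tRNA and 50.5% of the sequences that are neither 5S nor tRNA, and this last value is near the share of the 5S loci. At 30 or more UMIs in each library of a pair, 2 of 14 loci over library 1 and 8 of 22 over library 2 were past 2-fold higher. That minimum leaves out loci that are low in one library. The 0 lower in both pairs was largely set by the listing minimum. With at least 11 UMIs in library 3, most loci had too few UMIs in libraries 1 and 2 to be past 2-fold lower. The 95% interval lay wholly past 2-fold higher at 18 of the 5S loci over library 1, against 5.49% of all Rfam sequences, and at 43 over library 2, against 17.6%. Loci listed in library 3 and not in library 1 numbered 27, and the bound against 10 UMIs was past 2-fold at 16 of them, while of the 14 listed in library 1 and not in library 3 it was past 2-fold lower at 2. Over all Rfam sequences these bounds were past 2-fold at 136 of 274 and at 16 of 145. For library 2 over library 1, 0 of 76 loci were past 2-fold higher and 19 lower, against 9.03% and 18.9% of 1063 Rfam sequences. The lower share of the 5S loci, 25%, lay between the 8.19% of tRNA and the 39.0% of the other sequences. The interval of that ratio was wholly past 2-fold higher at 0 of the 5S loci, against 3.57% of all Rfam sequences. Here too, with at least 11 UMIs in library 1, most loci had too few UMIs in library 2 to be past 2-fold higher.

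The medians showed the same order. The median ratio of the 5S loci was 2.54 for library 3 over library 1, 3.81 for library 3 over library 2 and 0.798 for library 2 over library 1. The median over all Rfam sequences was 1.14, 1.14 and 0.908. The median of tRNA was 1.13 for library 3 over library 1 and 0.914 for library 3 over library 2, and that of the Rfam sequences that are neither 5S nor tRNA was 1.13 and 2.0.

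**Figure D5:**
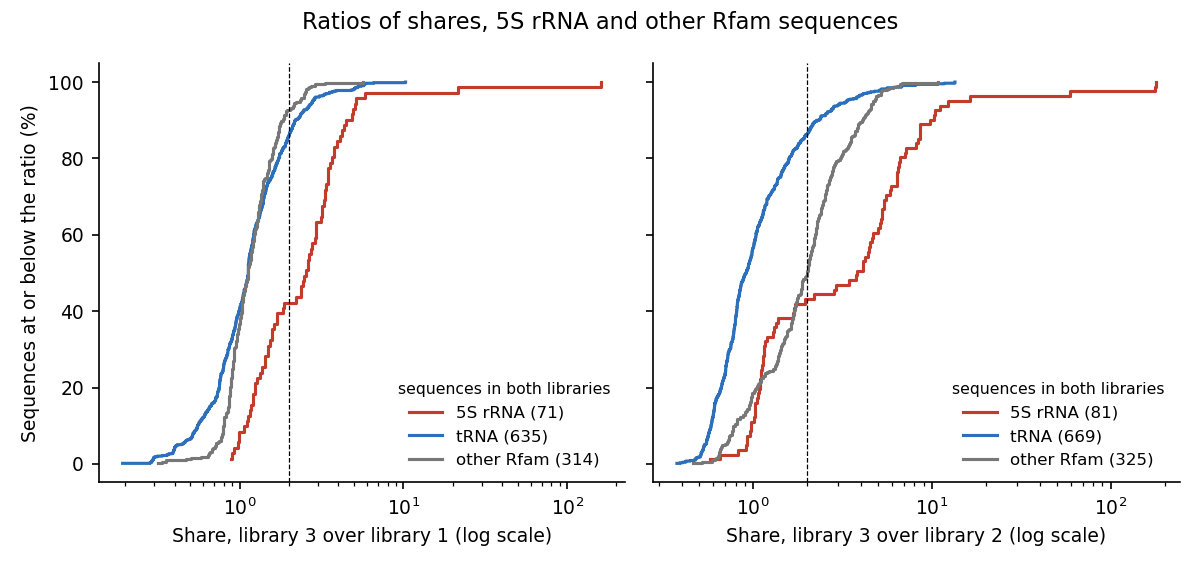
Percent of sequences at or below a ratio of shares (vertical axis) against that ratio on a log scale, for library 3 over library 1 (left) and library 3 over library 2 (right), among 5S loci, tRNA and other Rfam sequences listed in both libraries, with a dashed line at 2. The medians of the 5S loci are 2.54 and 3.81, against 1.13 and 0.914 for tRNA and 1.13 and 2.0 for the other sequences.

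Across all 3 libraries, the spread was wide for the family as a whole. The common biological coefficient of variation was 70.5% over the 68 loci listed in every library and 41.0% over the 998 such Rfam sequences. It was 60.8% without the loci past 20-fold that were listed in every library. Leaving out library 3 brought it to 27.3%, leaving out library 2 to 64.8% and leaving out library 1 to 85.8%.

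The ratios were also set out by reference length. The 39 loci of 119 bases had 4878 UMIs in library 3, with 3462 in library 2 and 1490 in library 1, and a ratio of 3.70 for library 3 over library 1, but without the 3 loci past 20-fold, all of this length, the ratio was 1.32. The 120-base loci had 1737 UMIs in library 3, with 991 in library 2 and 632 in library 1, with a ratio of 3.10 for library 3 over library 1, and 26 of the 28 listed in both were past 2-fold, against 15.1% of all Rfam sequences. Outside the clusters, the 15 loci of 120 bases had 614, 581 and 263 UMIs, and 7 of 9 were past 2-fold. Loci under 119 bases had a ratio of 1.5 and those over 120 bases of 2.48. The order of the lengths thus turned on the 3 loci, length overlaps with cluster membership and with the level of a locus, and its own part in the ratios was not tested.

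Set beside other RNAs, the 5S rRNA was the family with the highest ratio for library 3 in both pairs among the 20 Rfam families with at least 100 UMIs in every library. Without the 3 loci past 20-fold, 8 families had a higher ratio over library 2 than the 1.79 of the 5S rRNA, while over library 1 none did. Loci were taken out of the 5S rRNA only and the other families kept all of theirs, so a lower rank is in part built in. With all loci, the ratios of the 5S rRNA were 2.91 over library 1 and 2.85 over library 2. Other RNA polymerase III transcripts were below it over library 1. The tRNAs, which carry amino acids, had ratios of 0.780 and 0.747, and Y RNA, which binds the Ro60 protein, had 1.46 and 0.815. The U6 RNA of the spliceosome, the next highest family over library 1, had 164 UMIs in library 3, with 227 in library 2 and 106 in library 1. Its ratios were 1.75 (1.36 to 2.25) and 1.73. Over library 1 it could thus not be told within counting error from the 5S rRNA without the 3 loci, at 1.83 (1.75 to 1.92). The 7SK RNA, which holds the elongation factor P-TEFb inactive, had 254, 225 and 268 UMIs and ratios of 1.07 (0.898 to 1.28) and 2.7 (2.25 to 3.25), so over library 2 it could not be told from the 5S rRNA within counting error.

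The remaining RNAs of this kind were lower or rare. Vault RNA had ratios of 1.14 over library 1 and 0.818 over library 2, and the RNA of the signal recognition particle had 0.956 and 0.710. The U6atac RNA of the minor spliceosome was not listed in library 3, RNase P RNA was listed only in library 2 with 33 UMIs, and RNase MRP RNA was not listed.

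The rRNAs of the nucleolar repeat did not move with the 5S rRNA as one. The 5.8S rRNA had 11414 UMIs in library 3, with 27626 in library 2 and 12311 in library 1, with ratios of 1.05 over library 1 and 0.988 over library 2. Eukaryotic small subunit rRNA had ratios of 1.11 and 2.18, and eukaryotic large subunit rRNA 1.46 and 2.18. Both were below the 5S rRNA in each pair with all loci. They were above it over library 2 without the 3 loci past 20-fold, which were taken out of the 5S rRNA only. Like the 5S clusters, they were lower in library 2 than in library 1, with ratios of 0.509 and 0.670. In ribosomes the 5S, 5.8S and large subunit rRNAs occur in equal numbers, but the counts here are of short sequences captured by a miRNA kit, whose efficiency for each RNA was not measured.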

How the data were processed

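Libraries were built with a kit for miRNAs and UMIs. The authors trimmed adapters, filtered reads by quality and mapped first to miRBase, then to Rfam. Tools named in the submitters' processing notes are Bowtie 1.2.2, cutadapt 2.7 and FastQC. For each library the authors deposited UMI counts, not normalized, of mature miRNAs and of Rfam sequences. Genome build, strand use and handling of several matches are not given in the sources used here. Family names were joined by sequence name to the study's small RNA table, of which 1605 rows were at hand. These gave a family to 1518 of the 1631 listed Rfam sequences. The 113 without a name held 1141, 917 and 506 UMIs in libraries 3, 2 and 1. Of them, 5 had 110 to 130 bases and could be missed members, with 26, 42 and 0 UMIs. Members span 90 to 131 bases, so unnamed sequences outside 110 to 130 bases could be missed members too. No values were taken from the small RNA table. Reference sequences were not used here.

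Unlisted counts were entered as 0 in sums. Shares were computed of all miRNA and Rfam UMIs, with Wilson 95% intervals. Ratios of shares between 2 libraries had exact conditional binomial 95% intervals and were given for loci listed in both. Totals of 965891, 2310689 and 1090617 UMIs in libraries 3, 2 and 1 set the precision. With 1 condition no group was compared and no p-value was computed. The biological coefficient of variation came from edgeR 4.0.16 (only an intercept in the design, scaling by TMM), fitted on all Rfam sequences listed in every library, and DESeq2 1.42.0 size factors were an alternative. Both computations were tested on simulated data. Loci were named by mean share, by rank in each library, by highest and lowest ratio at 30 or more UMIs in both libraries together, and by leading a cluster, and the loci next to the 20-fold border, those with an interval above 1 among the 13 high loci and those low in library 3 were added after their values were seen. The members and lists were chosen with earlier results of these data known. Scripts ran in Python 3.11.15 (numpy 2.4.6, matplotlib 3.10.9, scipy 1.17.1, pandas 2.3.3) and R 4.3.3.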

Additional observations from a re-analysis of the deposited data

How the results depend on the processing

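No paired analysis was possible because every library is of the same condition. Leaving out 1 library at a time moved the mean 5S share, 0.493%, between 0.303% and 0.589%, and the biological coefficient of variation, 70.5%, between 27.3% and 85.8%. With at least 30 UMIs in every library that coefficient was 20.3% over 13 loci, against 38.0% over 678 Rfam sequences. That minimum by construction leaves out the loci that are low in one library. The mean share was 1.57% of all rRNA UMIs (2.14%, 1.61% and 0.948% in libraries 3, 2 and 1) and 0.956 UMIs per 100 tRNA UMIs (1.87, 0.492 and 0.502). In both, library 3 was the highest. The count of loci past 2-fold higher for library 3 over library 1, 41 of 71, was 11 at 4-fold. It was 2 of the 14 loci with at least 30 UMIs in each library, against 15.1% of all Rfam sequences without that minimum. Without the clusters on chromosomes 14 and 6 it was 17, an alternative added after the values had been seen. For library 3 over library 2, 46 of 81 became 8 of the 22 loci with at least 30 UMIs in each. Without the clusters it was 22, and the 0 loci past 2-fold lower became 1 under TMM scaling and 2 at 1.5-fold. For library 2 over library 1, the 0 higher became 3 at 1.5-fold. The 19 lower became 30 at 1.5-fold, 2 at 4-fold, 0 of the 14 loci with at least 30 UMIs in each, and 8 without the clusters. The mean number of loci that held 50% of the 5S UMIs, 7.33, was 12 without the 3 loci past 20-fold, also added later. The clusters' mean share of the 5S UMIs, 23.1%, was 5.37% at a distance of 10 kb and 26.5% at 1 Mb. TMM scaling put the median of all Rfam sequences at 1.01 for library 3 over library 1 in place of 1.14, and the 5S median at 2.26 in place of 2.54. Among ratios of named loci under other settings, 179 stayed within their interval and 4 did not, which were the ratios of chr28:1894648-1894766 (0.876 and 0.908) and chr21:60891281-60891399 (0.832 and 0.862) for library 3 over library 2 under TMM and DESeq2 scaling. Counts near 11 UMIs limit the lower loci.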

Other observations

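Besides the 3 5S loci, 3 tRNA sequences were over 20-fold higher in library 3 than in library 1. The tRNA at chr21:23821463-23821530 had 297 UMIs in library 3, the one at chr26:17575564-17575635 had 293 and the one at chr10:95717720-95717791 had 280, and none of them was listed in libraries 2 and 1. Taken against 10 UMIs, their ratios for library 3 over library 1 were at least 33.5, 33.1 and 31.6. No Rfam sequence was over 20-fold higher in library 1 than in library 3 (0 of those listed in library 1). Rfam families named for other organisms were listed too: bacterial small subunit rRNA had ratios of 1.36 for library 3 over library 1 and 2.21 for library 3 over library 2, bacterial large subunit rRNA had 1.11 and 1.42, archaeal large subunit rRNA had 1.43 and 2.33, and microsporidian small subunit rRNA had 1.14 and 2.66. The family names are those of the deposited mapping, and the organism of these sequences was not determined.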
